A study of Mus musculus with 8 samples.

Results

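The proteins that splice precursor mRNA and coat it in the nucleus were followed here at the level of their own mRNAs, in the hearts of 4 fasted and 4 satiated male C57BL/6J mice. The members were chosen by name: every gene whose symbol begins with Srsf, Hnrnp, Snrp, Sf3a or Sf3b and whose RefSeq accession was carried by a probe on the array. This gave 84 probes of 51 genes, out of 41174 non-control probes and 18351 named genes, with every probe kept as a row of its own because probes of 1 gene can differ. Fasted mice were 9 weeks old and had been without food for 2 days, with water freely available. Satiated mice were of the same strain, sex and age, received standard rodent pellets and had no treatment. Each heart gave total RNA for 1 Agilent whole-genome array in a single colour (Cy3), and nothing beyond the numbering in the labels says that the 4 samples of a group came from separate mice, so a p-value here measures no more than the spread among the numbered samples.

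Most mammalian genes are interrupted by introns, which the spliceosome removes. The U1, U2, U4 and U5 small nuclear ribonucleoproteins (snRNPs) of this machine are each built on a ring of Sm proteins, the products of the Snrp genes, and U1 and U2 also carry proteins of their own. The SF3A and SF3B complexes fix U2 to the branch point. SR proteins (Srsf genes), which hold stretches of arginine and serine, mostly favour the use of an exon, and heterogeneous nuclear ribonucleoproteins (hnRNPs) coat nascent RNA and often oppose them. In heart muscle, alternative splicing sets the isoforms of sarcomere and ion-handling proteins, and loss of single SR proteins in mouse heart is known to impair its function. Many SR and hnRNP genes also make RNA isoforms with a premature stop codon that are removed by nonsense-mediated decay, so that probes for different stretches of such a gene need not read the same RNA.

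Array values below are relative intensities: the background-corrected spot signal divided by the 75th percentile of the signals on its array, so that 1 is the level of that percentile. A relative intensity depends on the probe's own sequence, so a stronger probe signal does not show a more abundant mRNA, and values and sums over probes are compared only between hearts. Of all probes, 26480 cleared the scanner's background threshold on 4 or more arrays and were tested with limma, and 5501 of them (20.8%) had a Benjamini-Hochberg adjusted p below 0.05, 10.3% higher and 10.4% lower in fasted hearts. The arrays lay on 2 slides that each held 2 hearts of each group, and between 54.4% and 68.9% of probes were well above background, the lower share being on slide 2. All 10 cardiomyocyte markers examined, Myh6, Tnnt2 and Tnni3 among them, were above background. Their summed level was 3120 to 4440 in fasted and 3250 to 4390 in satiated hearts, and of their 15 probes 2 were lower in fasted hearts (Actc1 and Myl7). Some markers of other cells differed between the groups. Of 8 tested fibroblast probes 5 were lower and 2 higher in fasted hearts (summed level of 224 to 274 in fasted and 234 to 268 in satiated hearts). Most of this sum came from the Dcn probe, which was higher (209 ± 26.2 in fasted and 142 ± 6.51 in satiated hearts). The lower probes, of Col1a1, Col1a2, Col3a1 and Lum, had log2 fold changes from -2.56 to -0.98, so the sum hides their fall. Of 7 smooth muscle probes 2 were lower (71.4 to 88.1 and 91.2 to 106), and no gene of either list was undetected on all arrays. None of the tested endothelial (7), macrophage (7), erythroid (7) or proliferating-cell (4) probes was called. Of the 5 tested lymphocyte probes 1 was higher (0.833 to 2.23 in fasted and 0.574 to 0.883 in satiated hearts), and of 7 adipocyte probes 1 was lower (482 to 572 and 400 to 642). Most of the adipocyte sum came from Fabp4, while the lower probe, of Car3, had a log2 fold change of -3.67 (adjusted p = 0.00212). The part of these cells in the results below was not tested, and in whole heart RNA fewer cells of a type and less RNA per cell cannot be told apart.

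Of the 84 member probes, 83 probes of 50 genes were tested. Srsf12 alone was left out, because its probe was well above background on none of the fasted and 1 of the satiated arrays. In fasted hearts 8 probes of 7 genes were higher and 13 probes of 10 genes were lower, and 34 genes had no called probe. The share called, 25.3% of 83 probes, stood beside 20.8% of all tested probes, and the median log2 fold change was -0.07 against 0 over all tested probes. Single members lay between -1.66 and 1.30. Of the 83 probes 3 were called and differed at least 2-fold (Srsf5, Srsf3 and Sf3b1), next to 2035 of all 26480 tested probes. The 4 fasted and the 4 satiated values did not overlap for 12 probes higher and 18 probes lower in fasted hearts, next to 13.7% and 14.2% of all probes in the same directions. With the slide as a block, which takes out the difference between the slides, 16 member probes were higher and 21 lower while 36.9% of all probes were called.

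**Figure D1:**
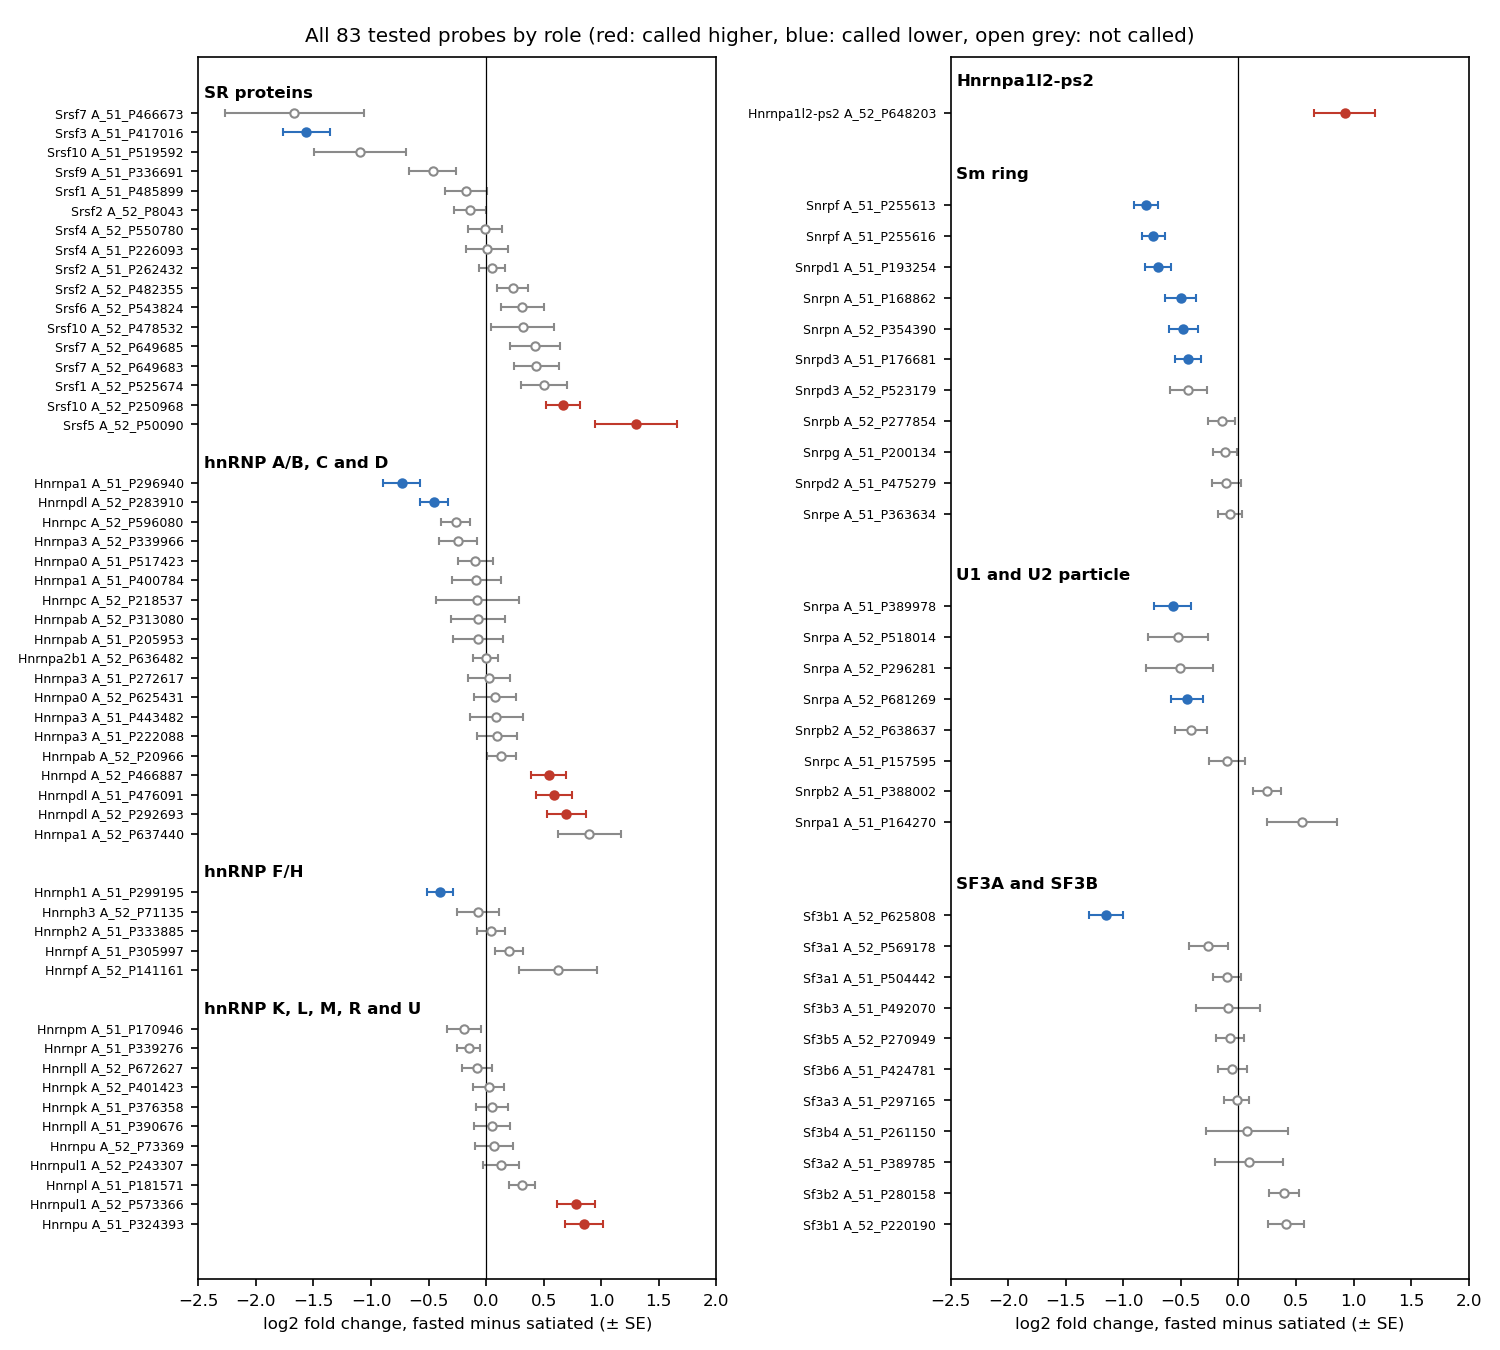
Log2 fold change, fasted minus satiated, of the 83 tested member probes (points) with its standard error (bars), grouped by role, with filled points for called probes. All 11 Sm ring probes lie below 0, while the SR proteins run from -1.66 (Srsf7) to 1.30 (Srsf5).

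The Sm ring held the highest share of called probes among the groups of members by role, and its calls were all in 1 direction. Hnrnpa1l2-ps2, with 1 probe that was called, is in none of these groups. All 11 probes of the 8 Sm ring genes had a log2 fold change below 0, with a median of -0.44. Of these, 6 probes of 4 genes (Snrpf, Snrpd1, Snrpd3 and Snrpn) were lower in fasted hearts and none was higher, next to 10.4% of all probes called lower. Snrpf, the Sm F protein, had 2 probes that fell alike. Probe A_51_P255613 read 4.04, 3.75, 4.07 and 4.15 in fasted hearts, against 7.51, 6.99, 6.75 and 6.71 in satiated hearts. Every fasted heart was below every satiated one by a wide margin, and the log2 fold change was -0.80 ± 0.104 (SE, adjusted p = 0.00204, limma). Probe A_51_P255616 averaged 5.54 ± 0.124 in fasted and 9.25 ± 0.276 in satiated hearts (SD, n = 4 each), a log2 fold change of -0.74 (adjusted p = 0.00224). Both Snrpf calls held without any single array and differed little between the slides (-0.90 and -0.71 for the first probe, -0.77 and -0.71 for the second).

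Snrpd1, the Sm D1 protein, read 1.19, 1.26, 1.44 and 1.30 in fasted hearts, against 2.01, 1.96, 2.23 and 2.21 in satiated hearts. The groups did not overlap, the fold change was 1.62-fold lower in fasted hearts (log2 -0.70 ± 0.115, adjusted p = 0.00491), it was -0.70 on each slide, and the call held without any single array. Snrpd3, the Sm D3 protein, had a called probe (A_51_P176681, 2.97 ± 0.230 in fasted and 4.02 ± 0.195 in satiated hearts, log2 -0.44, adjusted p = 0.0271) and a second probe of the same size that missed the threshold (A_52_P523179, 16.4 ± 2.53 in fasted and 22.1 ± 3.06 in satiated hearts, log2 -0.43, adjusted p = 0.0897, and 0.0239 in a fit that blocks on the replicate number, called the replicate block below). The Snrpd3 call was lost without any one of fasted replicates 1 and 2 and satiated replicates 1 to 4, with adjusted p up to 0.0785. Snrpn, a close relative of the Sm B protein expressed from an imprinted locus, read 2.09 ± 0.105 in fasted and 2.93 ± 0.403 in satiated hearts with A_52_P354390 (log2 -0.48, adjusted p = 0.0324) and 1.44 ± 0.158 and 2.04 ± 0.223 with A_51_P168862 (log2 -0.50, adjusted p = 0.0330). Both Snrpn probes had lower values in all 4 fasted hearts, but each lost its call in 7 of the 8 fits that left out 1 array, all but that without fasted replicate 3, with adjusted p up to 0.0810 and 0.0909. Snrpn and Snrpb mRNAs are alike, and whether the Snrpn probes also read Snrpb RNA was not tested. The other 5 probes, of Snrpb, Snrpd2, Snrpe and Snrpg and the second Snrpd3 probe, were not called. Snrpb, the gene of the Sm B protein itself, and Snrpd2, Snrpe and Snrpg, which supply other places of the ring, lay between -0.15 and -0.07. Snrpe, at 2.58 ± 0.162 in fasted and 2.71 ± 0.117 in satiated hearts, had a 95% confidence interval of the log2 fold change from -0.32 to 0.17.

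The first 250 bases before and 50 bases after the start of Snrpf, the Sm gene with the smallest p, are shown because both of its probes fell. They come from RefSeq (GRCm38.p6, chr10:93589609-93589908, minus strand, written 5′ to 3′ along the gene), and capitals mark 3 matches to the CCAAT box (CCAAT, either strand) and 1 to a forkhead site (TGTTTAC, either strand).
Snrpf: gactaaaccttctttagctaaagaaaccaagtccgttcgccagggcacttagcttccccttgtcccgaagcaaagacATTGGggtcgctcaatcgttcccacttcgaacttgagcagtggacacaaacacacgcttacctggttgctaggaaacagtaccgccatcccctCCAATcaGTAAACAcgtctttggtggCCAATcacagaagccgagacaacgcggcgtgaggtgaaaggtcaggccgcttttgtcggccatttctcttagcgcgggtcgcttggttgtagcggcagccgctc

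**Figure D2:**
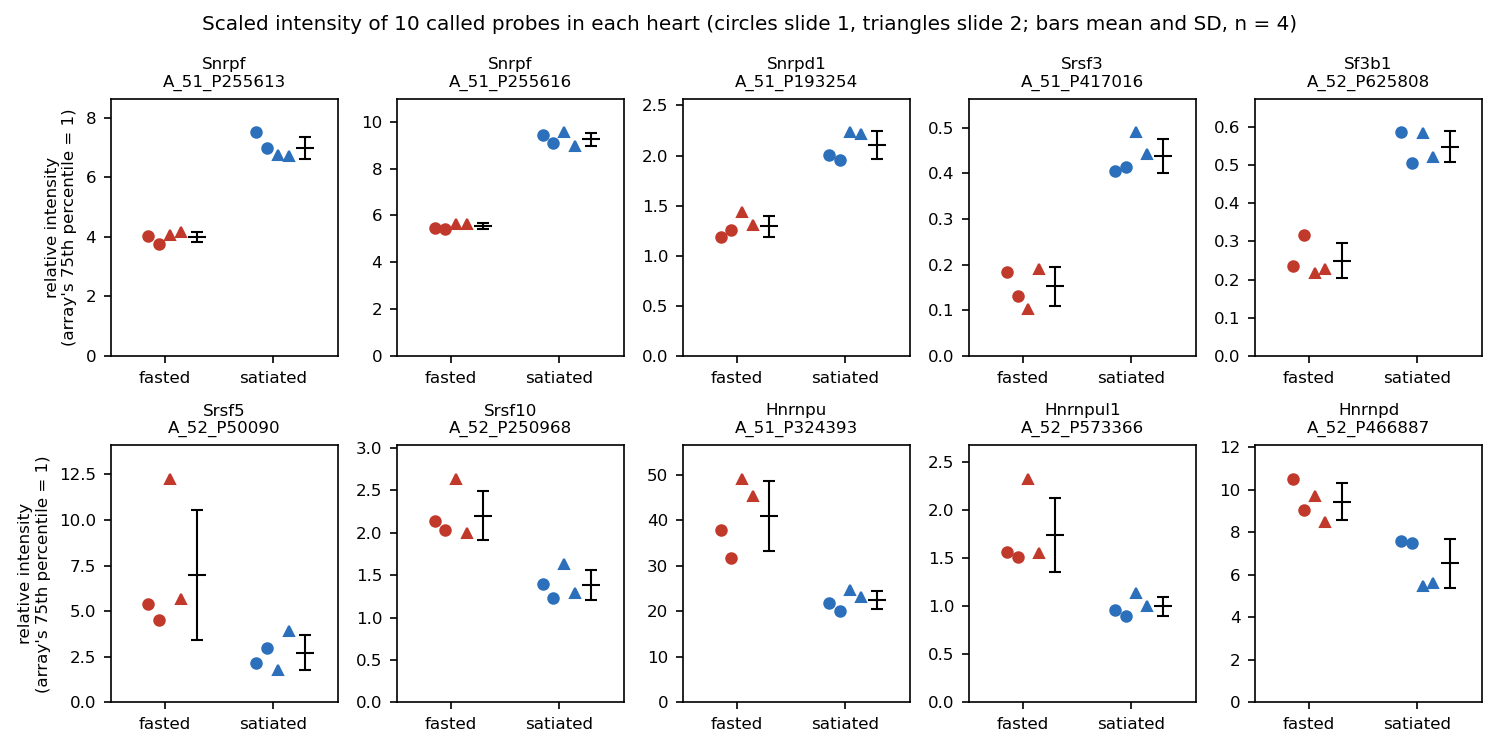
Relative intensity (array's 75th percentile = 1) of 10 called member probes in each heart, fasted left and satiated right, with circles for slide 1, triangles for slide 2 and bars for the mean and SD of 4 hearts. In none of the 10 panels do the fasted and satiated hearts overlap, and Srsf5 has 1 fasted heart, at 12.2, far above the other 3.

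Of the proteins carried only by U1 or U2, with 8 probes of 4 genes, 2 probes were lower in fasted hearts, both of Snrpa, the A protein of U1, and none was higher (25% called, near the 20.8% of all probes). Snrpa has 4 probes, all with a log2 fold change below 0: A_51_P389978 (log2 -0.57, adjusted p = 0.0369) and A_52_P681269 (log2 -0.45, adjusted p = 0.0499) were called, while A_52_P518014 (log2 -0.52) and A_52_P296281 (log2 -0.51) were not. Snrpa was named after its values were seen. Probe A_51_P389978 read 8.52, 9.34, 7.10 and 7.01 in fasted hearts, against 13.7, 13.3, 10.2 and 10.45 in satiated hearts. Slide 2 lay below slide 1 in both groups, and the difference was -0.60 on slide 1 and -0.55 on slide 2. The call of A_52_P681269 was lost in all 8 fits without 1 array (adjusted p = 0.0502 to 0.13), and that of A_51_P389978 in all but those without fasted replicate 2 or satiated replicate 3 (highest adjusted p = 0.10). The slide block gave the pair adjusted p-values of 0.00167 and 0.00364. Snrpc, the C protein of U1 (log2 -0.10), and Snrpa1, the A′ protein of U2 (log2 0.55 ± 0.301), were not called.

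Among the 9 genes of SF3A and SF3B, with 11 tested probes, a single probe was called (9.09%, next to 20.8% of all probes), and it belonged to Sf3b1, the large SF3B subunit that holds the branch point. Probe A_52_P625808 read 0.236, 0.318, 0.218 and 0.227 in fasted hearts, against 0.586, 0.504, 0.583 and 0.522 in satiated hearts. It was 2.22-fold lower in fasted hearts (log2 -1.15 ± 0.149, adjusted p = 0.00203), lower on both slides (-0.99 and -1.31), and called without any single array. The other Sf3b1 probe, A_52_P220190, read 1.27, 1.12, 1.41 and 0.971 in fasted hearts, against 0.992, 0.765, 0.947 and 0.862 in satiated hearts. Its groups overlapped by 1 value and its log2 fold change, 0.41 ± 0.153, had the opposite sign and was not called (adjusted p = 0.0930, and 0.0356 with the replicate block). This probe stayed uncalled in 11 of the 13 alternatives other than leaving out 1 array, the slide as a block among them. Sf3b2, another SF3B subunit (19.0 ± 2.71 in fasted and 14.3 ± 0.600 in satiated hearts), had a log2 fold change of 0.39 that was not called (adjusted p = 0.0677). It was called in 5 of the 13 alternatives other than leaving out 1 array, the slide as a block and the replicate block (0.0390) among them. The other 8 probes, of Sf3a1, Sf3a2, Sf3a3, Sf3b3, Sf3b4, Sf3b5 and Sf3b6, lay between -0.26 and 0.09.

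SR proteins held both the highest and the lowest member fold changes. Of 17 tested probes of 9 genes, 2 were higher and 1 was lower in fasted hearts (17.6% called, next to 20.8% of all probes), and the median was 0.05. Srsf3, the smallest SR protein, had 1 probe (A_51_P417016) that read 0.185, 0.131, 0.104 and 0.191 in fasted hearts, against 0.406, 0.414, 0.490 and 0.443 in satiated hearts. The highest fasted value was under the lowest satiated one, and the probe was 2.95-fold lower in fasted hearts (log2 -1.56 ± 0.208, adjusted p = 0.00226). The call held without any single array, and the fold change was -1.40 on slide 1 and -1.72 on slide 2. With normexp background correction, whose added offset shrinks the differences of dim probes by construction, it was -0.99 (adjusted p = 0.00117).

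Srsf5, an SR protein whose mRNA is known to respond to insulin in rat liver cells, moved the other way. Its single probe read 5.40, 4.54, 12.2 and 5.69 in fasted hearts, against 2.18, 3.01, 1.78 and 3.92 in satiated hearts. Fasted replicate 3 was far above the other fasted hearts in this probe, and all fasted hearts were above all satiated ones. The log2 fold change was 1.30 ± 0.355 (adjusted p = 0.0337), or 0.99 without fasted replicate 3 (adjusted p = 0.0453), 0.95 on slide 1 and 1.66 on slide 2. The Srsf5 call was lost with the replicate block (adjusted p = 0.0617), and without any one of fasted replicates 1 and 4 and satiated replicates 1 to 3 (up to 0.0819). Srsf10, an SR protein that turns into a general splicing repressor when it loses its phosphates, had a called probe (A_52_P250968) that read 2.14, 2.04, 2.63 and 2.00 in fasted hearts, against 1.40, 1.23, 1.63 and 1.29 in satiated hearts. It was higher in all 4 fasted hearts (log2 0.67 ± 0.144, adjusted p = 0.0143), by nearly the same amount on the slides (0.67 and 0.66), and stayed called without any single array.

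The starts of Srsf3 and Srsf5, the SR genes with the lowest and the highest log2 fold change among called SR probes, are printed side by side for comparison, from RefSeq (GRCm38.p6), each on the plus strand. For Srsf3 (chr17:29032410-29032709) capitals mark 1 CCAAT box on the opposite strand and 1 TATA box (TATAAA), and for Srsf5 (chr12:80945249-80945548) they mark 3 GC boxes (GGGCGG, either strand).
Srsf3: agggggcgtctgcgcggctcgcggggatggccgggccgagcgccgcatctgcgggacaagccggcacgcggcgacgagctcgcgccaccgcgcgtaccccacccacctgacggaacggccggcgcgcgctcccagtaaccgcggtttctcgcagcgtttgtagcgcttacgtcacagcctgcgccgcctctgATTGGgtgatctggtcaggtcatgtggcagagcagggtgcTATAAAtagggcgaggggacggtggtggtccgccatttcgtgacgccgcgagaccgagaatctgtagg
Srsf5: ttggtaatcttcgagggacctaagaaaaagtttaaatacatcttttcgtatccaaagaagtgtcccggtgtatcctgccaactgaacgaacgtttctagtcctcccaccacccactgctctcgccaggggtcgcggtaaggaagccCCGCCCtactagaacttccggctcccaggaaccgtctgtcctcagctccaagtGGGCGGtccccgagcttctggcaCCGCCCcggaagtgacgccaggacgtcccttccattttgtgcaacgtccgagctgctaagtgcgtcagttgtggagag

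The member log2 fold change farthest from 0 was not called, and its size depended on 1 heart. Srsf7, an SR protein that also acts in mRNA export, was named after its values were seen. Probe A_51_P466673 of Srsf7 read 1.46, 1.23, 0.192 and 0.707 in fasted hearts, against 3.17, 2.70, 1.84 and 1.57 in satiated hearts. The groups did not overlap but fasted replicate 3 was far below the other fasted hearts, and the log2 fold change of -1.66 ± 0.602 missed the threshold (adjusted p = 0.0861, and 0.0345 with the replicate block). Without fasted replicate 3 it was -1.04 (adjusted p = 0.0726), nearer to 0 than that of Srsf3. The other 2 Srsf7 probes leaned upward, at 0.44 (A_52_P649683, adjusted p = 0.152, and 0.0494 with the replicate block) and 0.42 (A_52_P649685). With the slide as a block, which called 36.9% of all tested probes, A_51_P466673 was called lower and these 2 probes higher. A_51_P466673 was also called lower with normexp background correction and on slide 1 alone. Srsf2 binds exonic enhancers, and its probe A_51_P262432 averaged 10.39 ± 0.825 in fasted and 10.01 ± 0.418 in satiated hearts, with a log2 fold change of 0.05 and a 95% confidence interval from -0.20 to 0.30. The other 2 Srsf2 probes lay at 0.23 and -0.14. Srsf1, which acts in constitutive as well as alternative splicing, had probes at 0.50 and -0.17, both not called, and Srsf4, Srsf6 and Srsf9 were not called either, at -0.46 to 0.32.

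The hnRNPs of the A/B, C and D groups gave calls in both directions: of 19 probes of 8 genes, 3 were higher and 2 lower in fasted hearts, with a median of 0 (26.3% called, next to 20.8% of all probes in both directions together). Hnrnpd encodes AUF1, which binds AU-rich elements and speeds mRNA decay. Its probe read 10.51, 9.06, 9.72 and 8.49 in fasted hearts, against 7.61, 7.48, 5.50 and 5.60 in satiated hearts. All fasted hearts were higher (log2 0.54 ± 0.155, adjusted p = 0.0402), by 0.37 on slide 1 and 0.71 on slide 2, and the call was lost in all fits without 1 array but that without satiated replicate 1 (adjusted p up to 0.11). Hnrnpdl, the close relative of Hnrnpd, was the member gene called both ways. Its probes A_52_P292693 (2.76 ± 0.647 in fasted and 1.67 ± 0.0801 in satiated hearts, log2 0.70, adjusted p = 0.0217) and A_51_P476091 (19.1 ± 2.31 and 12.7 ± 2.00, log2 0.59, adjusted p = 0.0295) were higher. Probe A_52_P283910 of Hnrnpdl was lower, at 2.14, 2.26, 2.38 and 2.12 in fasted hearts, against 2.67, 3.24, 2.86 and 3.44 in satiated hearts (log2 -0.45, adjusted p = 0.0342). No fasted heart overlapped a satiated one in any of the 3 probes. The first call was lost without any one of satiated replicates 2 to 4 (adjusted p up to 0.0586), the second without fasted replicates 1 or 3 or satiated replicates 3 or 4 (up to 0.0852), and the third without fasted replicates 1, 2 or 4 or satiated replicates 2, 3 or 4 (up to 0.10).

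Hnrnpa1, which binds exonic silencers and opposes SR proteins, had 3 probes, of which 1 was called. Probe A_51_P296940 read 0.193, 0.154, 0.206 and 0.143 in fasted hearts, against 0.327, 0.286, 0.287 and 0.249 in satiated hearts. It was lower in fasted hearts (log2 -0.73 ± 0.159, adjusted p = 0.0146), stayed called without any single array, and was -0.45 with normexp background correction (adjusted p = 0.0251). Probe A_52_P637440 read 0.901, 0.898, 1.85 and 0.777 in fasted hearts, against 0.521, 0.670, 0.467 and 0.598 in satiated hearts, and was not called (log2 0.89, adjusted p = 0.0507, and 0.0425 with the slide as a block). It was called higher in 6 of the 12 alternatives that gave it a value, leaving out 1 array aside. Probe A_51_P400784 averaged 13.2 ± 3.63 in fasted and 13.8 ± 2.49 in satiated hearts (log2 -0.08, adjusted p = 0.828). Hnrnpa1l2-ps2, whose symbol marks a pseudogene, had a called probe with nearly the values of A_52_P637440: 0.958, 0.931, 2.02 and 0.851 in fasted hearts, against 0.606, 0.639, 0.524 and 0.582 in satiated hearts. Its log2 fold change was 0.92 ± 0.266 (adjusted p = 0.0412), the call was lost with the replicate block (0.0528), and whether this probe reads the pseudogene or Hnrnpa1 itself cannot be told apart on the array. Without fasted replicate 3 its log2 fold change was 0.64 (adjusted p = 0.0108), and the call was lost without any one of fasted replicates 1 and 2 and satiated replicates 1 to 4 (up to 0.0956). Hnrnpa2b1, which sorts RNA cargo as well as acting in splicing, was not called, at 12.9 ± 1.04 in fasted and 12.9 ± 0.257 in satiated hearts, with a 95% confidence interval of the log2 fold change from -0.25 to 0.24. Hnrnpa0, Hnrnpa3, Hnrnpab and Hnrnpc had 11 probes in all, none of them called, between -0.26 and 0.13.

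Of 5 probes of the hnRNP F/H group, which binds runs of guanines, 1 was called (20%). Hnrnph1 read 8.15, 7.05, 6.89 and 7.20 in fasted hearts, against 10.3, 9.49, 9.89 and 9.01 in satiated hearts. Each fasted heart was lower, by a small fold (log2 -0.40 ± 0.112, adjusted p = 0.0360), and the call was lost in all fits without 1 array but that without fasted replicate 1 (adjusted p up to 0.0937). Hnrnpf, Hnrnph2 and Hnrnph3 were not called, at -0.07 to 0.62. Among hnRNPs K, L, M, R and U, 2 of 11 probes were called (18.2%), both higher in fasted hearts. Hnrnpu, the scaffold attachment factor that ties RNA to chromatin and is needed in mouse heart after birth, read 37.8, 31.7, 49.0 and 45.3 with probe A_51_P324393 in fasted hearts, against 21.9, 20.1, 24.8 and 23.2 in satiated hearts. The lowest fasted heart stood well above the highest satiated one, and the call held without any single array (log2 0.85 ± 0.162, 1.80-fold, adjusted p = 0.00885). Its other probe, A_52_P73369, averaged 5.81 ± 0.937 in fasted and 5.54 ± 0.811 in satiated hearts and was not called (log2 0.07, adjusted p = 0.821). Hnrnpul1, a relative of Hnrnpu, had a higher probe, A_52_P573366 (1.738 ± 0.388 in fasted and 0.9997 ± 0.0994 in satiated hearts, log2 0.78, adjusted p = 0.0141). Its dim probe A_52_P243307 (0.0967 ± 0.0153 and 0.0881 ± 0.0121) was not called (log2 0.13, adjusted p = 0.621). Hnrnpk, which binds runs of cytosines, averaged 72.4 ± 10.1 in fasted and 69.7 ± 5.45 in satiated hearts with probe A_51_P376358, with a log2 fold change of 0.05 and a 95% confidence interval from -0.27 to 0.37. Hnrnpl, Hnrnpll, Hnrnpm, Hnrnpr and the second Hnrnpk probe lay between -0.19 and 0.31 without a call.

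The start of Hnrnpu, the hnRNP gene with the smallest p, is shown from RefSeq (GRCm38.p6, chr1:178337766-178338065, minus strand, along the gene), with 4 GC boxes in capitals, of which 2 overlap and appear as a single run.
Hnrnpu: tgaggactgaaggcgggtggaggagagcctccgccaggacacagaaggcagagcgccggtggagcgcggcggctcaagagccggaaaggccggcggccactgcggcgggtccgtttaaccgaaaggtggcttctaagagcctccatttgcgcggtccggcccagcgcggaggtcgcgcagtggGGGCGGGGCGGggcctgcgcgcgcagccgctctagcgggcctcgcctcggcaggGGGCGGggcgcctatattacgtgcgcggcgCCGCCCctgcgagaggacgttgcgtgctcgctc

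These windows were searched for 7 motifs on both strands in the 46 of 51 member genes that RefSeq's table holds, beside all 27025 genes in it, non-coding ones included. The GC box (GGGCGG) was found in 32 member genes (69.6%, against 38.2% of all genes) and the CCAAT box (CCAAT) in 24 (52.2%, against 41.1%). The TATA box (TATAAA) was in 8 (17.4%, against 15.7%), the E-box (CACGTG) in 6 (13.0%, against 8.1%), and the cyclic AMP response element (TGACGTCA) in 2 (4.3%, against 2.0%). The forkhead site (TGTTTAC) was in 2 (4.3%, against 4.1%) and the NRF1 site in 0 (against 1.1%). Of the genes called in a single direction that have a window, 5 of 6 called higher and 5 of 8 called lower held a GC box, and 3 of 6 and 6 of 8 held a CCAAT box. None of the 7 motifs contains another, and a match describes the letters alone.

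Probes of 1 gene were then set beside each other. Of 23 member genes with at least 2 tested probes, 2 (Snrpf and Snrpn) had all probes called the same way, 7 had some probes called and others not, 1 (Hnrnpdl) was called both ways and 13 had no call (56.5%, next to 63.8% of all 4898 genes with several tested probes). In 13 of the 23 (56.5%) the probes had fold changes of both signs, next to 27.1% of all such genes, a difference that was not tested. Within these genes the probes spanned from 0.02 (Srsf4) to 2.10 (Srsf7) on the log2 scale, so some differed in sign by very little. Because the scaling of an array cancels in the difference of 2 probes on it, each further probe was compared with the probe of strongest signal of its gene, and the log2 difference was tested between fasted and satiated hearts over 6349 such pairs of 4898 genes. Of the 33 member pairs, 5 were called, in 5 genes, not far from the share over all genes, and 11 had an unadjusted p below 0.05. Over all genes 719 pairs (11.3%) were called, or 1224 with the replicate block, which called 10 member pairs.

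**Figure D3:**
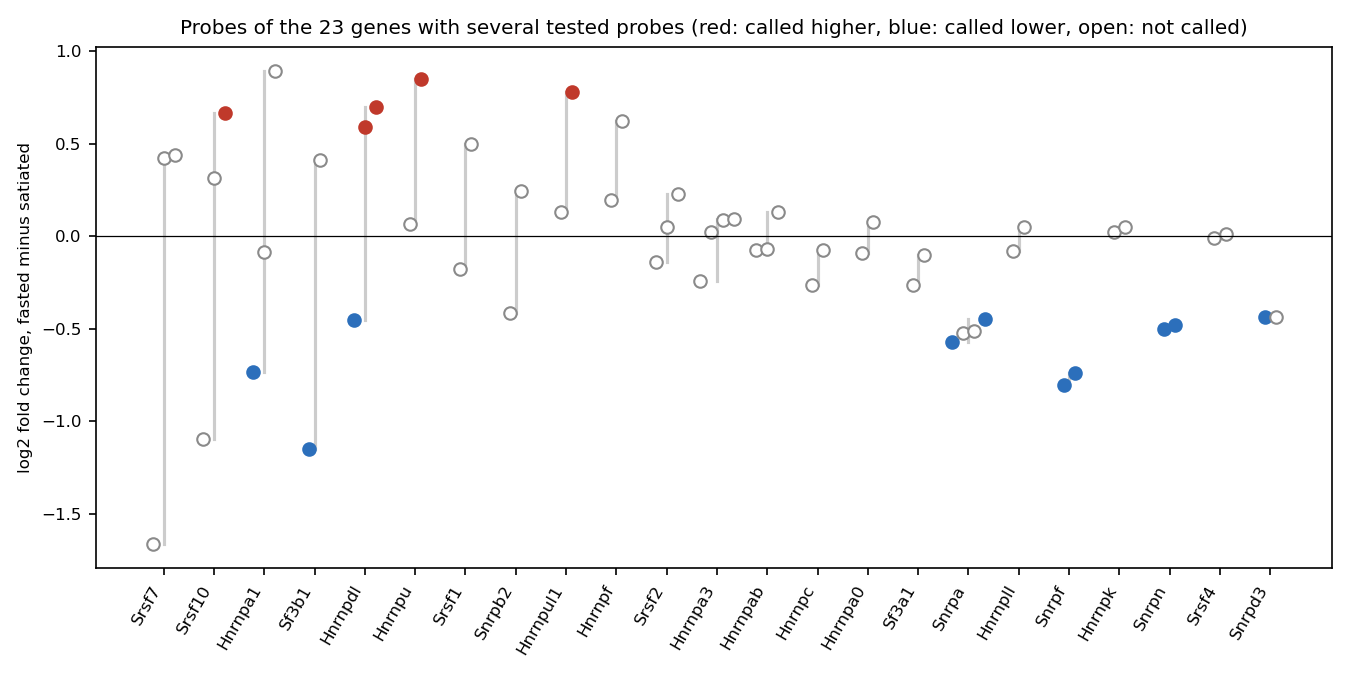
Log2 fold change, fasted minus satiated, of each tested probe of the 23 member genes with several probes, ordered by the range within a gene, with red and blue for called higher and lower and open points for no call. Srsf7 spans 2.10 on the log2 scale and Snrpf 0.06.

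The called pairs were those of Sf3b1, Hnrnpdl, Snrpb2, Srsf10 and Hnrnpa1. In Sf3b1, A_52_P625808 fell relative to A_52_P220190 by 1.56 ± 0.184 on the log2 scale (adjusted p = 0.00289), and the call held without any single array. In Hnrnpdl, A_52_P283910 fell relative to A_51_P476091 by 1.04 ± 0.164 (adjusted p = 0.00745), and this call too held without any single array. Snrpb2, the B″ protein of U2, had no called probe of its own. Its probe A_52_P638637 read 0.559, 0.757, 0.751 and 0.574 in fasted hearts, against 0.915, 0.830, 0.873 and 0.867 in satiated hearts. Its probe A_51_P388002 read 11.4, 11.9, 14.9 and 12.7 in fasted hearts, against 10.3, 10.4, 11.2 and 10.8 in satiated hearts. Neither probe's groups overlapped, in opposite directions (log2 -0.41, adjusted p = 0.0720, and 0.25, adjusted p = 0.196), and the difference of the pair, -0.66 ± 0.126, was called (adjusted p = 0.0145) and stayed so without any single array.

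In Srsf10, A_51_P519592 averaged 0.124 ± 0.0531 in fasted and 0.256 ± 0.100 in satiated hearts (log2 -1.10, adjusted p = 0.0857, and 0.0475 with the replicate block), while A_52_P250968 was higher in fasted hearts. Their difference of -1.76 ± 0.445 was called (adjusted p = 0.0419), but not without any one of fasted replicates 1 and 4 and satiated replicates 1 to 4 (adjusted p up to 0.101). The remaining Srsf10 probe, A_52_P478532, lay at 0.32 without a call. The Hnrnpa1 pair, A_52_P637440 against A_51_P400784, changed by 0.98 ± 0.255 (adjusted p = 0.0462), but was not called with the replicate block (0.0599) or without any one of fasted replicates 1 to 3 and satiated replicates 1, 3 and 4 (up to 0.113). The pair of Srsf7 probes with the widest range, -2.10 ± 0.730, was not called (adjusted p = 0.123), nor was the Hnrnpu pair (-0.78, adjusted p = 0.0774). The Hnrnpul1 pair (-0.65, adjusted p = 0.0763) and the Hnrnpa1 pair of A_51_P296940 against A_51_P400784 (-0.65, adjusted p = 0.149) were not called either. The sequence and position of the probes were not used here, so which exon or isoform each probe reads was not tested.

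The slides were compared because each held a complete small comparison of 2 fasted and 2 satiated hearts. Of the 83 member probes, 70 (84.3%) had the same sign on both slides, next to 81.5% of all tested probes. The 21 called probes were among the 70, which is no independent support because they were called on these same arrays. The called lower probes had a median log2 fold change of -0.60 on slide 1 and -0.55 on slide 2, and the called higher probes 0.64 and 0.88. With slide 1 alone 3 member probes were higher and 6 lower, and with slide 2 alone limma called 0 of all 26480 probes in this comparison of 2 against 2 hearts.

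**Figure D4:**
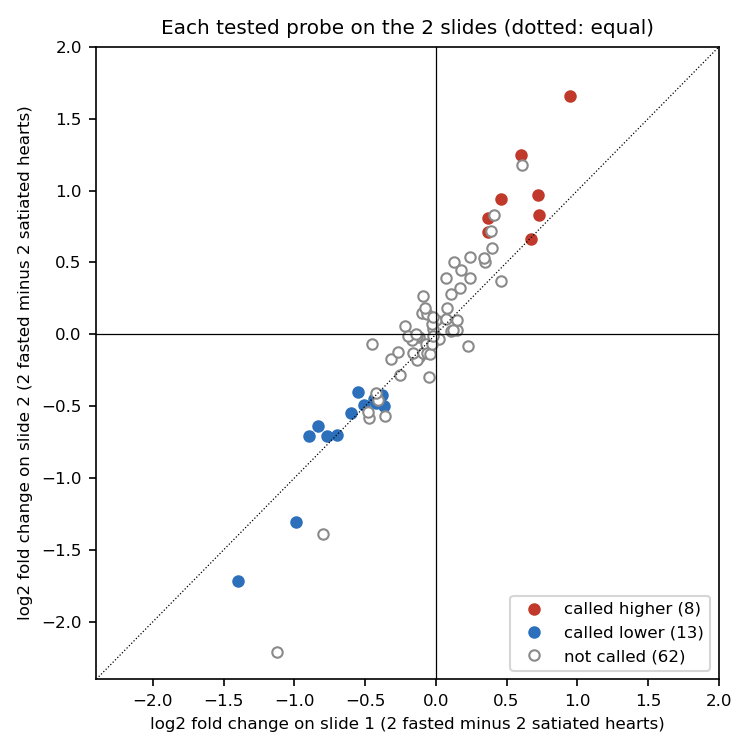
Log2 fold change, fasted minus satiated, of each of the 83 tested member probes on slide 1 (x axis) and slide 2 (y axis), with the dotted line marking equal values. All 21 called probes (filled) lie in the lower left or the upper right, and Srsf5 is the filled point farthest up.

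Other genes of the pathway were taken from 9 lists by role, with 192 genes and 334 tested probes. Of these 43 probes were higher and 24 lower in fasted hearts (20.1% called, next to 20.8% of all probes), with a median log2 fold change of 0.11, and 122 were called with the replicate block. The lists ranged from 13% called (branch point factors) to 29% (LSm and SMN proteins). The named genes of these lists are those of up to 3 called probes per direction and list, 38 in all, and of the 21 with several tested probes 4 had all probes called the same way, while 17 had called and uncalled probes, 1 of them (Celf2) with calls both ways.

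The ring-like LSm proteins and the SMN complex that loads Sm rings had 6 of 31 probes lower and 3 higher. Lsm6, of the ring on U6, read 0.0481, 0.0657, 0.0639 and 0.0600 with A_51_P152802 in fasted hearts, against 0.144, 0.175, 0.182 and 0.179 in satiated hearts. It was 2.87-fold lower (log2 -1.52 ± 0.144, adjusted p = 0.000723), and A_52_P422755 was lower too (log2 -1.02), while normexp background correction gave -0.69 and -0.65 for these probes, both called. The other 2 Lsm6 probes differed less: A_52_P593268 (5.56 ± 0.862 in fasted and 7.63 ± 0.278 in satiated hearts) was called at -0.47 (adjusted p = 0.0390), a call lost in 7 of the 8 fits without 1 array, and A_52_P655743 was not called (log2 -0.46, adjusted p = 0.0802). Lsm3 was lower (log2 -0.74), though not without fasted replicate 1 or satiated replicate 4 (adjusted p up to 0.0571). The SMN partners Gemin2 (log2 0.59, adjusted p = 0.00572) and Gemin5 (log2 0.58 and 0.40) were higher in fasted hearts. The Gemin5 calls were lost in 3 and 7 of the 8 fits without 1 array (adjusted p up to 0.0650 and 0.0972).

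Other snRNP proteins had 4 probes higher and 4 lower out of 39. Sart1, which brings the tri-snRNP into the spliceosome, averaged 26.2 ± 2.60 in fasted and 14.4 ± 1.06 in satiated hearts (log2 0.86, adjusted p = 0.0028), and its second probe was higher too (log2 0.92). Snrnp48 and Luc7l2 each had 1 probe higher (log2 0.83 and 0.86), but the second Snrnp48 probe (log2 -0.09) and 3 further Luc7l2 probes (log2 -0.23 to 0.23) were not called. Ppih, a cyclophilin of the tri-snRNP, had a lower probe (log2 -0.99, adjusted p = 0.00234) and an uncalled one (log2 0.15). Txnl4a likewise had 1 lower probe (log2 -0.70) and 2 uncalled ones (log2 0.04 and 0.02), whereas both Snrnp25 probes were lower (log2 -0.55 and -0.52).

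Branch point and 3′ splice site factors had 2 of 23 probes higher, of Zrsr1 (log2 0.97) and Zrsr2 (log2 0.81), both of which recognise 3′ splice sites, and 1 lower, U2af1l4 (log2 -0.84). Leaving out satiated replicate 2 ended the Zrsr2 call (adjusted p = 0.0547), and the other Zrsr2 probe was not called (log2 -0.20). The Prp19 complex and step factors had 6 of 45 probes higher, among them Syf2 (log2 0.87), Xab2 (log2 0.84) and 1 probe of Prpf38b (log2 0.65). The other Prpf38b probe was not called (log2 0.00, adjusted p = 0.997), and the Prpf38b call was lost without satiated replicates 3 or 4 (adjusted p up to 0.0568). The 1 lower probe was that of Ppil1, at 2.06 ± 0.585 in fasted and 6.01 ± 0.630 in satiated hearts (log2 -1.60, adjusted p = 0.00295).

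Kinases and importers of SR proteins had 2 of 29 probes lower and 2 higher. Srpk3, the SR protein kinase found mainly in striated muscle, read 2.37, 2.84, 1.61 and 2.37 in fasted hearts, against 5.13, 5.05, 5.95 and 5.01 in satiated hearts. No fasted heart came near the satiated range (2.34-fold lower, log2 -1.23 ± 0.181, adjusted p = 0.00321). Srpk2 had 1 of 5 probes called, lower (log2 -0.82, or -0.49 with normexp background correction), and the other 4 lay between -0.65 and -0.36. The importer Tnpo1 (log2 0.67) was higher, a call lost without fasted replicate 4 or satiated replicates 1 or 2 (adjusted p up to 0.0641) and with normexp (0.0545). The nuclear kinase Clk4 had 1 higher probe (log2 0.49, adjusted p = 0.0452), whose call was lost in all 8 fits without 1 array (adjusted p up to 0.12), and 2 uncalled ones (log2 0.46 and 0.45).

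SR-related proteins had 9 of 44 probes higher and 1 lower. Scaf11 averaged 6.99 ± 0.918 in fasted and 3.26 ± 0.202 in satiated hearts (log2 1.09, adjusted p = 0.00151), with a second probe that was not called (log2 0.65, adjusted p = 0.0634). That second probe was called higher in 7 of the 12 alternatives that gave it a value, leaving out 1 array aside. Bclaf1 was higher with all 4 of its probes (log2 0.83, 0.78, 0.71 and 0.65), of which the last 2 lost their calls in 3 and 6 of the 8 fits without 1 array (adjusted p up to 0.0663 and 0.0920), and Pnn was higher as well (log2 0.62). Pnisr had the lower probe (log2 -0.72) and another at 0.03 that was not called.

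The list of tissue splicing regulators had 7 of 47 probes lower and 5 higher. Tial1, which binds uridine-rich stretches beside 5′ splice sites, averaged 2.55 ± 0.438 in fasted and 5.76 ± 0.103 in satiated hearts with A_51_P441942 (log2 -1.19, adjusted p = 0.00176), while its other probe was not called (log2 0.30). Celf2, which binds CUG and GU-rich RNA, was called both ways. Its probe A_52_P243542 averaged 0.670 ± 0.0426 in fasted and 1.28 ± 0.120 in satiated hearts (log2 -0.93, adjusted p = 0.00188). Probe A_51_P182471 of Celf2 averaged 6.81 ± 1.49 in fasted and 4.46 ± 0.165 in satiated hearts (log2 0.59, adjusted p = 0.0311), a call lost without any one of the satiated replicates (up to 0.0782), and the remaining Celf2 probe was not called (log2 0.34). Rbm4 was lower (log2 -0.62). The polypyrimidine tract proteins Ptbp2 (log2 0.996) and Ptbp3 (log2 0.97) and the CUG-binding Celf4 (log2 0.78, or 0.42 with normexp) were higher. The calls of Ptbp3 and Celf4 were each lost without fasted replicate 4 or any one of the satiated replicates (adjusted p up to 0.0684 and 0.0739).

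Proteins like hnRNPs under other symbols had 6 of 48 probes higher and 1 lower. Cirbp, the cold-inducible RNA-binding protein, read 29.1, 31.9, 58.9 and 32.4 in fasted hearts, against 12.9, 11.1, 15.5 and 13.0 in satiated hearts. It was 2.80-fold higher (log2 1.48 ± 0.234, adjusted p = 0.00415), or 1.25 without fasted replicate 3. The other cold-inducible member, Rbm3 (24.9 ± 1.95 in fasted and 13.9 ± 0.477 in satiated hearts, log2 0.84, adjusted p = 0.00203), was higher as well, its second probe being too dim to test. Ewsr1 had a higher probe (log2 0.64) and an uncalled one (log2 0.55, adjusted p = 0.0704). Raver2, which works with polypyrimidine tract proteins, was lower (log2 -1.13) but well above background on 2 of the 4 fasted arrays only. The Raver2 call was lost with normexp (log2 -0.23, adjusted p = 0.133) and without satiated replicate 2 (0.0514).

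Exon junction and nonsense-mediated decay factors had 6 of 28 probes higher and 1 lower. The endonuclease Smg6 averaged 0.604 ± 0.145 in fasted and 0.204 ± 0.0195 in satiated hearts with A_52_P628928 (log2 1.54, adjusted p = 0.00125). A second Smg6 probe was higher (log2 0.55, a call lost in 5 of the 8 fits without 1 array, adjusted p up to 0.0721), and 2 more were not called (log2 0.32 and 0.39). The kinase Smg1 had 3 of 5 tested probes higher, at 0.81 (0.49 with normexp), 0.80 and 0.73, and 2 uncalled ones at 0.77 and 0.75. The call at 0.80 ended when satiated replicate 2 was left out (adjusted p = 0.0528) and that at 0.73 in 5 of the 8 fits without 1 array (up to 0.0648). The junction core protein Rbm8a had a lower probe (log2 -1.52, adjusted p = 0.00601, or -0.72 with normexp), well above background on 3 of the 4 fasted arrays, and an uncalled one (10.3 ± 2.76 in fasted and 8.30 ± 1.48 in satiated hearts, log2 0.29, adjusted p = 0.395).

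**Figure D5:**
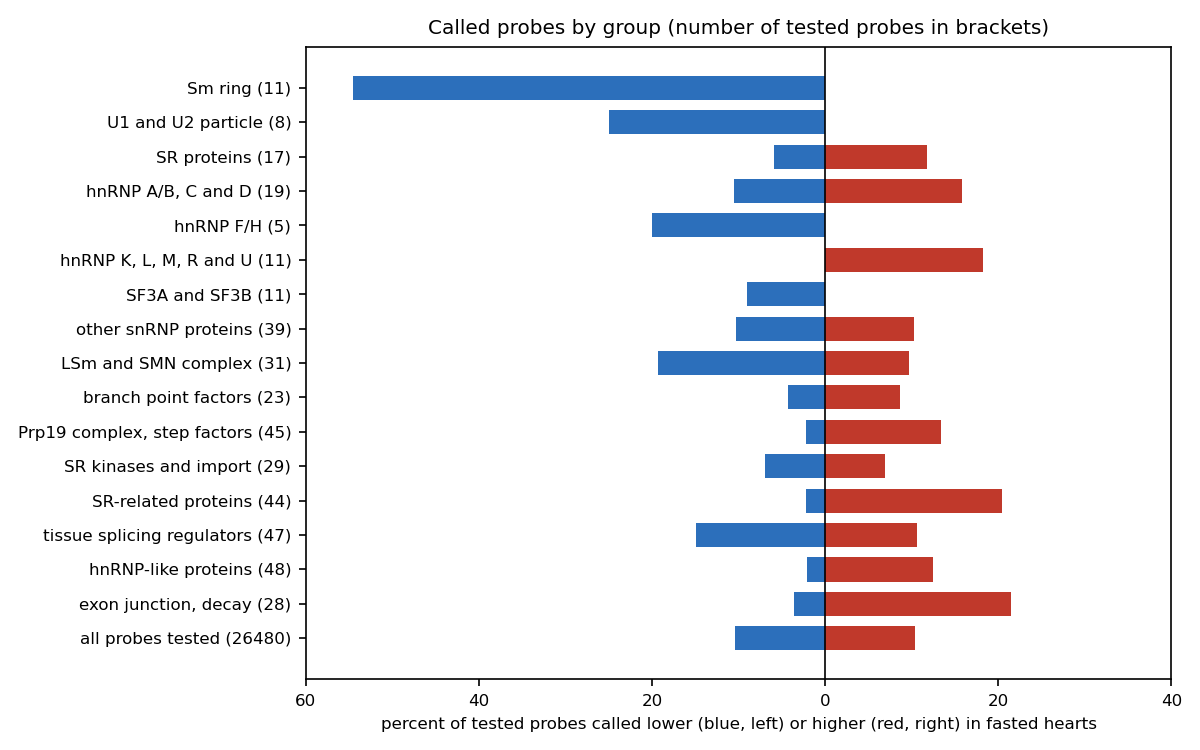
Percent of tested probes called lower (blue, left of 0) or higher (red, right of 0) in fasted hearts, for 7 groups of members, 9 lists of other splicing genes and all 26480 tested probes, with the number of probes in brackets (Hnrnpa1l2-ps2 is in no group). The Sm ring, at 54.5% lower, has the longest bar, and the bar of all probes reaches 10.4% lower and 10.3% higher.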

How the data were processed

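Total RNA of 8 hearts was labelled with Cy3 and hybridised to 8 single-colour Agilent arrays, per the labels' protocols. Spot intensities in the deposited scanner tables are background-subtracted signals of Agilent Feature Extraction, array by array and not normalized across arrays, per the file headers. Slide 1 was read with version 10.5.1.1 and slide 2 with 10.7.3.1 of that software, again per those headers, whereas the submitters' processing notes name 9.1. The authors' series table holds linear ratios (how they were made: not given in the sources used) and served as an alternative on the log2 scale. All arrays were used, 4 per group, and their number limits the precision.

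Control spots were left out, spots of a probe averaged, and log2 intensity minus the array's 75th percentile taken. Probes well above background on at least 4 arrays were tested, fasted minus satiated, with lmFit and eBayes (limma 3.58.1, R 4.3.3, two-sided, Benjamini-Hochberg over 26480 probes), and called at an adjusted p below 0.05. All adjusted p-values in the text are limma's. Probe pairs were tested in the same way over all pairs. The scripts were tested on simulated data. Gene symbols came from the probes' accessions through RefSeq's gene table (GRCm38.p6): 26932 probes had 1 symbol and 14242 none, 10 with conflicting accessions among them. The slides' design files differ in accession for 1782 probes, which left the members the same. Of 58 symbols with these beginnings in that table, 7 had no matched probe.

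The members and lists were chosen with earlier results of these data known. Named members were, per family (SF3A with SF3B), up to 6 called probes in each direction by smallest p, the brightest probe, and genes with a called pair, with their other probes beside them. Up to 3 called probes per direction were named in each related list, with the other probes of their genes. Snrpa, Srsf7 and the members given only as uncalled values fall outside that rule. Same-numbered hearts deviated together from their group means (correlations of 0.459, 0.499, 0.341 and 0.503). Hearts on the same slide with different numbers correlated as well (0.304 to 0.531), so a pairing by number cannot be told apart from the slide. The replicate block treats the numbers as pairs and served as an alternative only. Alternatives changed the scaling, background correction, filter, blocks, weights, slide or array set. Normexp used the median signals (offset 50) and was chosen after seeing the files.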

Additional observations from a re-analysis of the deposited data

Results flagged for a closer look

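The check covered the member probes named by the rule, so those of Snrpa and Srsf7 were not included. In 5 of the 60 groups of 4 hearts checked, 1 heart stood apart by Dixon's ratio, its gap to the nearest heart divided by the group's range. Chance gives about 1 in 20. Fasted replicate 3 was the high heart in 3 of them: Hnrnpul1 A_52_P573366 at 2.32 (ratio 0.922), Hnrnpa1l2-ps2 at 2.02 (0.863) and Hnrnpa1 A_52_P637440 at 1.85 (0.82904). Fasted replicate 4 was low for Snrpn A_51_P168862, at 1.21 (0.910), and satiated replicate 2 was low for Snrpd3 A_51_P176681, at 3.72 (0.893). Without fasted replicate 3 the log2 fold change of Hnrnpa1l2-ps2 was 0.64 and that of Hnrnpa1 A_52_P637440 0.62, both still above 0. Why these hearts differ was not tested.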

How the results depend on the processing

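All 21 called member probes kept their direction in every alternative that gave them a value. All 21 were called with the slide as a block, array weights, the percentile over probes detected on all arrays and the filter on all 8 arrays, 20 with quantile normalization, 19 with normexp, 18 with the deposited table, 17 with the array median, 9 without a filter, 8 on slide 1 and 10 to 16 without 1 array. The counts of 8 probes higher and 13 lower were 16 and 21 with the slide as a block, 3 and 6 without a filter on dim probes (with more probes tested), 3 and 6 on slide 1 alone, 0 and 0 on slide 2 alone, and 7 and 6 with only the brightest probe of each gene. The share of all tested probes called was 36.9% with the slide as a block, 7.95% without a filter, 11.1% on slide 1 and 0% on slide 2, and the related lists had 131, 40, 28 and 0 called probes in these, and 43 with the brightest probe per gene. Called pairs over all genes numbered 1405 with the slide as a block and 0 on slide 2, and member pairs 12 and 0, with 3 without a filter. The fit with the replicate number as a block treats same-numbered hearts as pairs, which no label states. It called 12 member probes higher and 18 lower, 33.9% of all probes, 122 probes of the related lists, 1224 pairs over all genes and 10 member pairs. It ended the calls of Srsf5, Hnrnpa1l2-ps2 and the Hnrnpa1 pair among the named members.

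Leaving out 1 array gave 3 to 8 member probes higher and 6 to 10 lower, a median of -0.07 to 0.01 for the members, 13% to 18.7% of all probes called, 41 to 64 probes of the related lists, 377 to 630 pairs over all genes and 3 to 4 member pairs. The fewest calls came without satiated replicate 3 (3 higher, 7 lower) and without satiated replicates 2 or 4 (4 higher, 6 lower each). Apart from the fewer arrays or other probes tested, the cause of these shifts was not tested. Dim probes are limited by background: only Srsf12 among the members could not be measured.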
